A study of Mus musculus with 16 samples.

Results

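Collagen chain genes were followed across 4 groups of mouse embryonic stem (ES) cells. The members were chosen by their symbol: every gene named Col, a number, a and a number, which gave 44 of the 23420 genes in the count files. The rule itself reads no value, but the family was selected on earlier results of these same libraries, so the counts and tests here describe it and support nothing beyond it. J1 ES cells of the 129S4/SvJae background at passage 36 were sampled at day 3, with 2 libraries in each group. Every group, the control included, carries the same transgene, a dCas9-VPR activator (a Cas9 that cannot cut, fused to activation domains) with a guide RNA to RLTR10B2 and DsRed; RLTR10B2 is the long terminal repeat of a family of mouse endogenous retroviruses. The control had no doxycycline (Dox), the Dox group had 1 µg/ml, the A-MYB group had induced expression of A-MYB (the product of Mybl1, a transcription factor of male meiosis) and the Dox + A-MYB group had both. All were grown without feeders on gelatin in serum with 2i (PD0325901 and CHIR99021) and LIF. No group received Dox without the activator or with another guide, so the effect of Dox itself and that of the activator cannot be told apart. The labels do not say that the 2 libraries of a group came from separate cultures, so p-values measure only the spread between these libraries. Spermatocyte samples of the same series were not analysed here.

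Collagens are extracellular proteins in which 3 chains wind into a triple helix. Fibrillar collagens such as types I, II, III, V and XI form the cords of connective tissue and cartilage, type IV forms the sheet of the basement membrane, and FACITs (types IX, XIV, XX and others) sit on the surface of fibrils. Type VI builds beaded filaments, type VII anchors epithelium, types XIII, XVII, XXIII and XXV span the cell membrane, and the multiplexins XV and XVIII stud basement membranes. In the early embryo the cells of the inner cell mass and the endoderm around them lay down the first basement membrane, so ES cells make type IV collagen and laminin, while the fibrillar types I and III are products of later mesenchyme. Many collagens are heterotrimers, so that one molecule needs the products of several of the genes described here.

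Sequencing depth was similar in all libraries, from 26995317 to 33771487 counts in genes. Levels are CPM, counts per 1e6 gene counts, scaled by TMM, a factor that adjusts for libraries whose RNA is taken up by different genes. In Dox + A-MYB the libraries differed from the remaining 6, with counts in 17602 and 17554 genes against 16027 to 16512 and TMM factors of 1.12 and 1.11 against 0.944 to 0.979. Mybl1 was at 7.65 ± 1.04 CPM in control, 10.6 ± 0.581 with Dox, 19.9 ± 2.96 with A-MYB and 18.3 ± 2.32 with both (SD, n = 2 each, as for every ± below), so it was higher in the groups labelled A-MYB. The 8 ES cell markers summed to 5995 to 6657 CPM in control, Dox and A-MYB libraries and to 4207 to 4465 CPM in Dox + A-MYB. Pou5f1 was at 1616 and 1467 CPM in control, 1119 and 1285 with A-MYB, and 1145 and 1378 with both. So it was not lower with both than with A-MYB, while each other ES marker had its lowest mean in Dox + A-MYB. The 10 extraembryonic endoderm markers summed to 7.51 to 10.8 CPM in the first 3 groups and 19.9 to 23.1 CPM in Dox + A-MYB. Of the latter Dab2 made 7.33 to 9.17 CPM and Gata4 7.12 to 7.91, against 1.17 to 2.78 and 4.47 to 6.00 in the first 3 groups. Cubn, Amn and Pdgfra averaged 1.35, 1.97 and 1.41 CPM in Dox + A-MYB and 0.0367, 0.309 and 0.411 in control. Foxa2 and Thbd averaged less there than in control, and Gata6 stayed at 0.0365 to 0.350 CPM in all groups. The 10 fibroblast markers summed to 22.0 to 22.5 CPM in control and 13.8 to 14.8 CPM in Dox + A-MYB, mostly Pdgfrb, at 16.8 and 16.7 CPM in control and 5.23 and 6.23 in Dox + A-MYB. Others were higher there: Twist1 was at 1.73 and 2.02 CPM in control and 6.07 and 6.32 in Dox + A-MYB, Lum at 0 and at 0.204 and 0.356, and Dcn at 0 in the other 6 libraries and at 0.292 and 0.178. The 8 mesoderm markers summed to 39.9 to 41.4 CPM in control and 15.8 to 16.4 in Dox + A-MYB, and the 8 neuroectoderm markers to 359 to 362 and 184 to 186. These sums hide opposite courses: Tubb3 was at 256 and 251 CPM in control and 51.8 and 52.0 in Dox + A-MYB, while Nes was at 99.2 and 102 against 125 and 127, Pax6 at 0.554 and 0.272 against 3.88 and 4.09, and the mesoderm marker Hand1 at 0.208 and 0.427 against 1.23 and 1.36. The part of these markers in the results below was not tested.

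RefSeq promoter windows (GRCm38.p6, 250 bases before the start to 50 after it) were found for 35 of the 44 members, 38 windows in all, and for 12 of the 18 members whose values are given in full. Their median GC content was 59.9%, against 52.7% over 32851 windows of all genes. The GC box GGGCGG stood in 60.5% of the members' windows and 35.7% of all windows, on either strand, and the TATA box TATAAA in 13.2% and 13.6%. The box CCAAT stood in 34.2% of the members' windows and 37.4% of all. The MYB core, the short word AACGG that MYB proteins read or the related AACTG, stood in 60.5% of the members' windows and 55.1% of all; a match is a description of the letters and not a bound site. Those printed are given in reading direction, as the 250 bases before the start that defines the window. They belong to 2 members that fell in all 4 two-group comparisons below and to 2 that rose in Dox + A-MYB. That start need not be the first base annotated for the gene. The annotated span of Col20a1 begins at 180983323, upstream of its whole printed stretch. Those of Col11a2 and Col5a1 begin at 34038919 and 27886381, within theirs. Capitals mark the TATA box, CCAAT box, GC box or either MYB core, on either strand. The windows are Col9a2 at chr4:121039316-121039565 (+), Col5a1 at chr2:27886175-27886424 (+), Col20a1 at chr2:180986285-180986534 (+) and Col11a2 at chr17:34038888-34039137 (+).
Col9a2: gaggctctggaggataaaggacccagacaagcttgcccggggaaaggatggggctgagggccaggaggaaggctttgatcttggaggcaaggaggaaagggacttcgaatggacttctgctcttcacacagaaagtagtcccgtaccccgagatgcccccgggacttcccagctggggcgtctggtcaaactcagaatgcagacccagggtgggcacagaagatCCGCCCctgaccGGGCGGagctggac
Col5a1: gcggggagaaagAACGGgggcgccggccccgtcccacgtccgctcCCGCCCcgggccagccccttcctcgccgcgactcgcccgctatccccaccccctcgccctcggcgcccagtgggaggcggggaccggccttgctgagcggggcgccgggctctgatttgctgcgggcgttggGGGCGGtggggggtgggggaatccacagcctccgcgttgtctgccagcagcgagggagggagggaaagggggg
Col20a1: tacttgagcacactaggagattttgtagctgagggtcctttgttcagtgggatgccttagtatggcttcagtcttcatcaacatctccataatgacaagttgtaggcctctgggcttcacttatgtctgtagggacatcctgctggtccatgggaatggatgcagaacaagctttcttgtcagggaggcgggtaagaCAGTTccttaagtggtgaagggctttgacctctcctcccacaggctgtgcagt
Col11a2: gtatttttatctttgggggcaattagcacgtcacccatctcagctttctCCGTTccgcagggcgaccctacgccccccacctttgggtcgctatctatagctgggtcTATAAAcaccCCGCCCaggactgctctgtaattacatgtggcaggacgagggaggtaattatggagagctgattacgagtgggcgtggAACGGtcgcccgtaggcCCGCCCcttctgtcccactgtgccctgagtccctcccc

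Of the stretches shown, those of the falling Col9a2 and Col5a1 are 60.4% and 76.4% GC. Those of the rising Col20a1 and Col11a2 are 49.2% and 57.6%. These stretches were picked for printing, so they do not compare falling with rising members. Over 300 bases the windows of the rising Col16a1, Col6a5 and Col6a4 are 74.3%, 60.0% and 55.0% GC. That of the falling Col4a1 is 74.0%, and those of the falling Col18a1 are 63.3% and 59.7%. In the 250 bases printed, Col5a1 and Col11a2 hold the AACGG core, Col20a1 holds AACTG and Col9a2 neither; the 300-base window of Col9a2 used for the shares holds 1 AACTG, on the other strand and across the end of the printed stretch. The genes of the main type IV chains, Col4a1 and Col4a2, lie head to head and are read away from each other. Their starts are 21 bases apart, at 11312826 on the minus strand and 11312805 on the plus strand of chromosome 8. This is the 22-base stretch that holds both, chr8:11312805-11312826 (plus strand, 72.7% GC). It is printed without capitals, although it holds the GC box GGGCGG.
Col4a1 and Col4a2: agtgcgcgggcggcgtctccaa

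Summed over the 44 genes, collagen mRNA was at 259 ± 11.6 CPM in control, 130 ± 7.66 with Dox, 154 ± 5.64 with A-MYB and 143 ± 9.62 with both. The control libraries were highest and did not overlap the others. In such bulk samples, fewer cells that make a collagen and less of its RNA per cell cannot be told apart. In Dox + A-MYB the total was made up differently. The 5 most abundant members (Col18a1, Col4a1, Col4a2, Col5a1 and Col9a2) held 87.7% and 89.1% of the collagen reads in control, 83.4% to 84.5% in Dox and A-MYB, and 69.4% and 70.9% in Dox + A-MYB; these shares take no account of transcript length. The other 39 members summed to 32.9 and 27.3 CPM in control, 20.6 and 21.6 with Dox, 23.2 and 25.0 with A-MYB, and 41.5 and 43.5 with both, where they were highest. So the 39 were lowest in Dox and in A-MYB and highest where both were given.

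**Figure D1:**
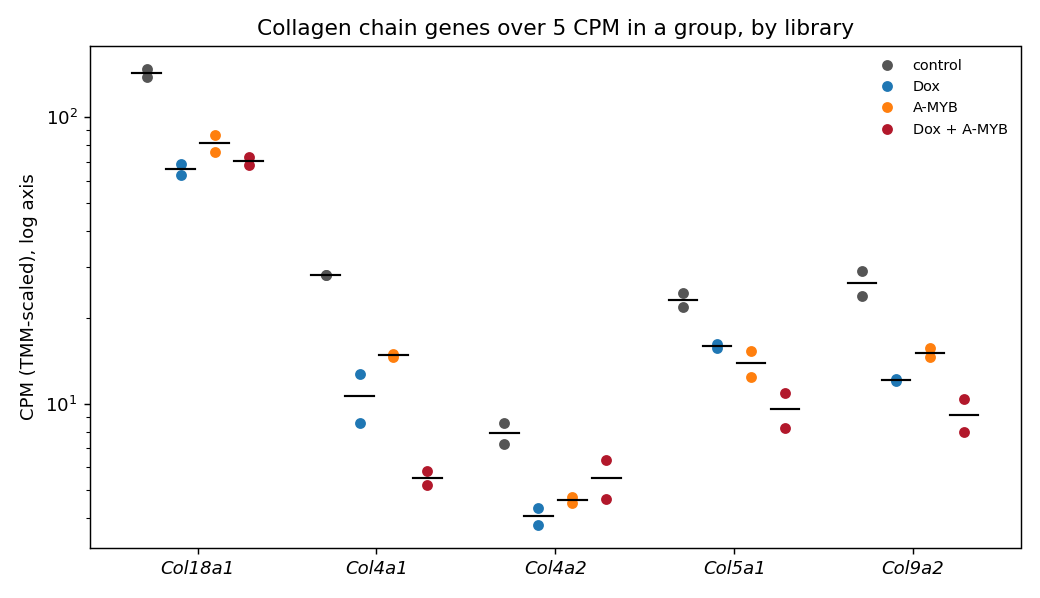
CPM (TMM-scaled, log axis) of the 5 collagen chain genes with a group mean of at least 5 CPM, in each of the 8 libraries; points are libraries and short lines are group means. The 2 control libraries are above the other 6 for all 5 genes shown, and Col18a1 goes from 138 to 148 CPM in control to 62.8 to 86.6 CPM elsewhere.

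Of the 44 members, 28 had enough counts to be tested with edgeR's quasi-likelihood test, fitted on 14664 genes and called at an adjusted p under 0.05. Dox without A-MYB (Dox against control) gave 0 higher and 10 lower members, where 17.9% of all tested genes were higher and 14.3% lower. At an unadjusted p under 0.05, 1 member was higher, and DESeq2 called 0 higher and 9 lower. A-MYB without Dox (A-MYB against control) gave 1 higher and 7 lower, where 19.5% of all genes were higher and 15.2% lower. Dox with A-MYB (Dox + A-MYB against A-MYB) gave 14 higher and 5 lower against 28.5% and 30.4% of all genes, and A-MYB with Dox (Dox + A-MYB against Dox) gave 10 higher and 3 lower against 26.8% and 28.4%. DESeq2 called 9 higher and 4 lower for the former and 8 higher and 3 lower for the latter, and 16 were higher for the latter on total gene counts. As shares of the 28 tested, the lower members were 35.7% and 25% in the first pair of comparisons, and the higher members 50% and 35.7% in the second pair.

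The interaction, which is how much the Dox effect differed when A-MYB was present, was positive and past the threshold for 9 members, against 16.4% of all genes, and negative for 0, against 24.5%. At an unadjusted p under 0.05, 0 members had a negative interaction, and DESeq2 called 7 positive and 0 negative. The median log2 change of the 28 tested members was -0.59 for Dox without A-MYB, -0.38 for A-MYB without Dox, 0.82 for Dox with A-MYB and 0.81 for A-MYB with Dox, each beside 0.00 to 0.03 over all genes. Both comparisons against control share the control libraries, and both against single treatments share the Dox + A-MYB libraries, so they are not separate evidence. Col3a1, Col4a5 and Col9a1 passed the filter on low counts only through Dox + A-MYB, where they are high. That choice favours a difference there, so their calls support nothing, and Col4a5 was called in no comparison. Without them the higher calls were 12 for Dox with A-MYB and 9 for A-MYB with Dox. Of 10 calls for Dox without A-MYB 6 held in each of 13 alternatives, and of 14 higher calls for Dox with A-MYB 3 did (Col11a2, Col20a1 and Col9a1). Col9a1 is one of the members that passed the filter only through Dox + A-MYB, so that it held supports nothing. Many of the single calls below were lost without individual libraries, which are named. Leaving out a library also leaves 1 in its group, so a call can be lost while its estimate hardly moves. The Col20a1 interaction of 1.96, for example, was lost at 2.06 without control replicate 1. A lost call therefore need not rest on the library left out. Without A-MYB replicate 2 there were 7 higher and 3 lower calls for Dox with A-MYB; without A-MYB replicate 1, or without Dox + A-MYB replicate 2, there were 9 higher, and without Dox + A-MYB replicate 1 there were 3 lower. The 9 interactions became 4 without Dox replicate 1, 5 without A-MYB replicate 1 and 5 without Dox + A-MYB replicate 2.

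**Figure D2:**
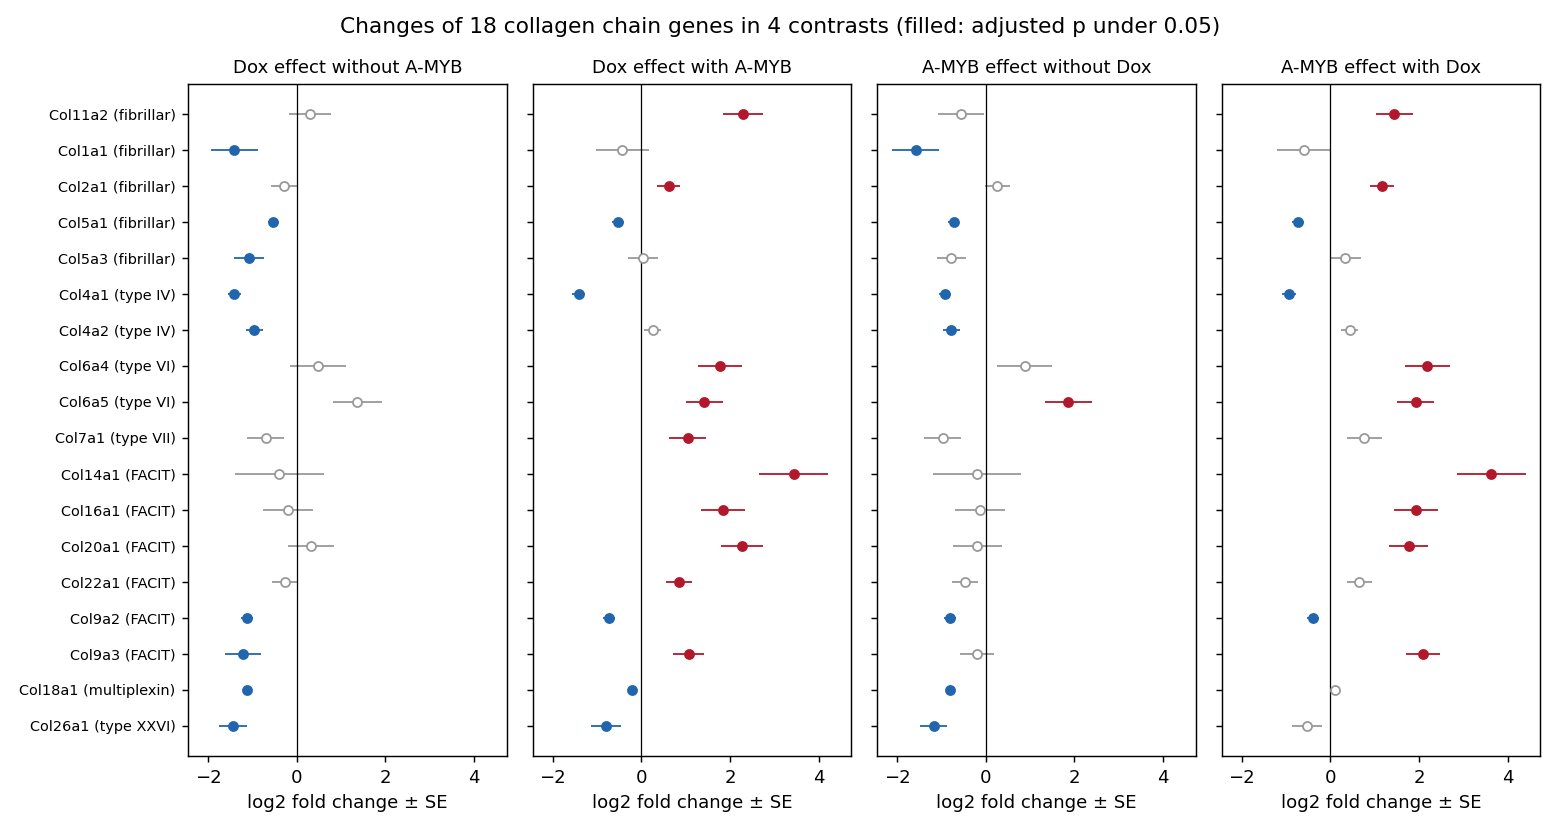
Log2 fold change with its standard error for the collagen chain genes given in full, in the 4 two-group comparisons, ordered by class; filled points passed edgeR's adjusted p of 0.05, blue lower and red higher. The abundant genes lie below 0 without A-MYB, while most of the lower-expressed genes lie above 0 with A-MYB.

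Type IV, the sheet-forming collagen of basement membranes, was at its highest in control. Its 6 genes summed to 36.2 ± 0.870 CPM in control, 14.9 ± 2.83 with Dox, 19.5 ± 0.470 with A-MYB and 11.6 ± 1.71 with both, almost entirely Col4a1 and Col4a2, the chains of the common trimer. Col4a1 was at 28.0 and 28.1 CPM in control, 8.54 and 12.7 with Dox, 15.0 and 14.6 with A-MYB, and 5.23 and 5.81 with both, with no overlap between the groups. It fell by 1.41 ± 0.14 (SE) on the log2 scale with Dox alone (adjusted p = 5.57e-08) and by 1.42 with Dox in the presence of A-MYB (adjusted p = 2.53e-08). A-MYB lowered it by 0.93 without Dox and by 0.94 with it, and the interaction was -0.01 ± 0.20 (adjusted p = 0.977), so the Dox changes with and without A-MYB differed by less than their error.

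Its partner Col4a2 followed another course. Col4a2 was at 7.24 and 8.58 CPM in control, 4.33 and 3.78 with Dox, 4.71 and 4.51 with A-MYB, and 4.64 and 6.35 with both, where it overlapped the A-MYB libraries. It fell by 0.96 ± 0.20 with Dox alone (adjusted p = 0.00056) and by 0.78 with A-MYB alone (adjusted p = 0.00305), and changed by 0.25 with Dox in the presence of A-MYB (adjusted p = 0.275). The interaction was 1.21 ± 0.28 (adjusted p = 0.00113), and this call held in every alternative tried. The ratio of Col4a1 to Col4a2 counts, 3.88 and 3.27 in control, 1.97 and 3.36 in Dox, and 3.18 and 3.23 in A-MYB, was 1.13 and 0.916 in Dox + A-MYB. The head-to-head genes overlap at their starts in the annotation, and the sources used here do not say whether the counting used strand, so reads from the overlap cannot be assigned to either. Scaled to total gene counts, Col4a2 rose by 0.46 with Dox in the presence of A-MYB (adjusted p = 0.0463) and by 0.62 with A-MYB in the presence of Dox (adjusted p = 0.00971); the latter passed also without Dox + A-MYB replicate 1, at 0.64 (adjusted p = 0.0173). Of the remaining type IV genes Col4a5 had 7 to 29 counts in a group and passed no comparison with all libraries. Col4a3 was at 0 in all 8 libraries, and Col4a4 and Col4a6 had 0 to 6 counts in a group.

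Col18a1, the multiplexin whose C-terminal fragment is endostatin, held about as many reads as all other collagen genes together, from 48.5% to 55.4% of collagen reads in every library. It was at 148 and 138 CPM in control, 62.8 and 68.7 with Dox, 75.8 and 86.6 with A-MYB, and 68.1 and 72.4 with both. The 6 treated libraries were all below both controls. Dox alone lowered it 2.18-fold, by 1.12 ± 0.076 on the log2 scale (adjusted p = 4.16e-11), and A-MYB alone lowered it 1.76-fold (adjusted p = 2.57e-08). Adding either treatment to the other moved it little: the change was -0.21 for Dox with A-MYB (adjusted p = 0.0202) and 0.10 for A-MYB with Dox (adjusted p = 0.291), and the interaction was 0.91 ± 0.11 (adjusted p = 3.55e-07). The small fall of -0.21 did not hold: it was 0.00070 on total gene counts (adjusted p = 0.994), -0.11 without A-MYB replicate 2 (adjusted p = 0.29) and -0.17 without Dox + A-MYB replicate 1 (adjusted p = 0.0765). On total gene counts A-MYB with Dox raised it by 0.29 (adjusted p = 0.0023). The annotation gives Col18a1 more than 1 start, and the counts do not separate them. Its relative Col15a1 had 2 to 9 counts in a group.

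The 11 fibrillar genes summed to 37.7 ± 1.05 CPM in control and to 24.4 to 25.7 CPM on average in the 3 treated groups. The gene with the most reads in each group was Col5a1, a chain of type V collagen, which helps to start fibrils and is made by many cells. Col5a1 was at 21.7 and 24.3 CPM in control, 15.6 and 16.2 with Dox, 15.3 and 12.4 with A-MYB, and 8.21 and 10.9 with both. It fell by 0.53 ± 0.13 with Dox without A-MYB (adjusted p = 0.00314) and by 0.53 ± 0.14 with it (adjusted p = 0.00209), and by 0.73 with A-MYB in either setting (adjusted p = 0.000162 and 8.07e-05). The interaction was 0.00 ± 0.19 (adjusted p = 0.994), again less than its error. Without A-MYB replicate 1 the Dox change with A-MYB was -0.38 (adjusted p = 0.058).

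Other fibrillar chains differed from Col5a1. Col5a3, a minor chain of type V, was at 2.39 and 2.64 CPM in control, 1.27 and 1.10 with Dox, 1.42 and 1.502 with A-MYB, and 1.402 and 1.60 with both; it fell by 1.08 ± 0.34 with Dox alone (adjusted p = 0.0157). That call was lost without control replicate 2, Dox replicate 1 or Dox replicate 2 (adjusted p of 0.0695, 0.0584 and 0.0895). Col27a1, a long fibrillar chain of cartilage, fell by 0.97 ± 0.26 with Dox alone (adjusted p = 0.00514, but 0.0977 without control replicate 1). Its interaction of 0.81 (adjusted p = 0.0731) passed without control replicate 2 (0.0435), without A-MYB replicate 2 (0.0412) and on total gene counts (0.0315). Col1a1, the main chain of type I collagen, was at 2.25 and 0.971 CPM in control, 0.727 and 0.481 with Dox, 0.365 and 0.701 with A-MYB, and 0.292 and 0.504 with both. It fell by 1.41 ± 0.53 with Dox alone (adjusted p = 0.0416) and by 1.59 ± 0.54 with A-MYB alone (adjusted p = 0.0239), and both calls rest on control replicate 1, without which they were -0.70 (adjusted p = 0.516) and -0.88 (adjusted p = 0.389). The first was lost also without Dox replicate 1 or 2 (adjusted p of 0.0825 and 0.2), under the replicate block (0.0514) and in DESeq2 (0.0718), and the second without A-MYB replicate 1 (0.181). Col1a2, the partner chain in type I, had 9 to 19 counts in a group and was not tested.

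The cartilage chains Col2a1 and Col11a2 were highest in Dox + A-MYB, but this did not hold for all such fibrillar chains. Col11a1, also a type XI chain, averaged 1.94 CPM in Dox + A-MYB, its lowest group, and 2.87 in control. Col27a1 also averaged less in Dox + A-MYB than in control. Col11a2, a chain of type XI collagen, was at 0.866 and 0.466 CPM in control, 0.787 and 0.859 with Dox, 0.475 and 0.434 with A-MYB, and 2.45 and 2.02 with both. It rose 4.89-fold with Dox in the presence of A-MYB, by 2.29 ± 0.46 (adjusted p = 0.000131), a call held in every alternative, and by 1.44 with A-MYB in the presence of Dox (adjusted p = 0.00518, but 0.0536 without Dox + A-MYB replicate 1). Its interaction was 2.00 ± 0.66 (adjusted p = 0.0176), and 0.136 without control replicate 1 and 0.0581 without Dox + A-MYB replicate 1. Col2a1, the type II chain of cartilage, was at 2.67 and 1.71 CPM in control, 1.76 and 1.82 with Dox, 2.45 and 2.81 with A-MYB, and 4.03 and 4.03 with both. It rose by 1.17 ± 0.27 with A-MYB in the presence of Dox (adjusted p = 0.000771), a call held in every alternative. Its change of 0.62 with Dox in the presence of A-MYB (adjusted p = 0.0479) was lost without any 1 of the 6 libraries other than the controls (adjusted p from 0.0502 to 0.186), without the filter on low counts (0.0606), under the replicate block (0.0528) and in DESeq2 (0.1). Its interaction missed the threshold (0.91, adjusted p = 0.0653) and passed it without control replicate 2 (1.21, adjusted p = 0.0232) and on total gene counts (1.08, adjusted p = 0.0298).

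Col3a1, the type III chain of mesenchyme, had 1 count in control, 0 with Dox, 4 with A-MYB and 46 with both. In Dox + A-MYB its libraries were at 1.05 and 0.297 CPM, both above the other 6, which reached 0.110 CPM. Its level in CPM was at least 14.0-fold higher with A-MYB in the presence of Dox, taking 3 counts over the Dox group as the limit, and 9.70-fold higher with Dox in the presence of A-MYB (95% counting interval 3.54 to 37.1). Col3a1 entered the test only through Dox + A-MYB, where it is high, so its calls in these comparisons are counted above but support nothing. Col11a1, Col5a2 and the untested Col24a1 complete the fibrillar class: Col11a1 ran from 1.94 CPM on average in Dox + A-MYB to 2.87 in control, Col5a2 from 0.207 to 0.529, and neither passed a comparison.

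The 9 FACIT genes summed to 31.7 ± 3.48 CPM in control, 16.2 ± 0.216 with Dox, 19.6 ± 0.178 with A-MYB and 22.1 ± 2.03 with both. Within this class one gene carried the fall and others the rise. Col9a2, a chain of type IX collagen, was at 29.2 and 23.8 CPM in control, 12.2 and 12.0 with Dox, 15.7 and 14.5 with A-MYB, and 7.97 and 10.4 with both. It fell by 1.13 ± 0.13 with Dox alone (adjusted p = 3.38e-07), by 0.72 with Dox in the presence of A-MYB (adjusted p = 6.62e-05) and by 0.81 with A-MYB alone (adjusted p = 2.77e-05). Its change of -0.40 with A-MYB in the presence of Dox (adjusted p = 0.0151) was lost on total gene counts (-0.21, adjusted p = 0.192), without Dox replicate 1 (adjusted p = 0.055) and without Dox + A-MYB replicate 1 (adjusted p = 0.201). Its interaction was 0.41 ± 0.19 (adjusted p = 0.0824), and passed without control replicate 2 (0.57, adjusted p = 0.037), without Dox + A-MYB replicate 1 (0.61, adjusted p = 0.0071) and on total gene counts (0.58, adjusted p = 0.0161).

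Col9a3 and Col9a1, the other chains of type IX, had other courses. Col9a3 was at 1.90 and 1.09 CPM in control, 0.727 and 0.550 with Dox, 1.497 and 1.14 with A-MYB, and 2.89 and 2.61 with both, so Dox was the lowest group and Dox + A-MYB the highest. It rose by 2.09 ± 0.38 with A-MYB in the presence of Dox (adjusted p = 5.52e-05), and its interaction of 2.29 ± 0.54 (adjusted p = 0.00141) held in every alternative. With Dox alone it fell by 1.23 ± 0.41 (adjusted p = 0.0227), a call lost without control replicate 1 (0.283), Dox replicate 1 (0.0534) or Dox replicate 2 (0.117). With Dox in the presence of A-MYB it rose by 1.07 ± 0.36 (adjusted p = 0.0124), lost without A-MYB replicate 2 (0.0977) or Dox + A-MYB replicate 1 (0.0668). The annotated span of Col9a3 overlaps by 237 bases that of Tcfl5, a transcription factor gene. Whether the counting used strand is not stated, so reads from this overlap cannot be assigned to either gene. Tcfl5 was at 19.4 ± 0.833 CPM in control, 16.5 ± 0.209 with Dox, 19.1 ± 0.370 with A-MYB and 12.3 ± 1.28 with both. It fell where Col9a3 rose, in the comparisons of Dox + A-MYB with a single treatment. With Dox alone both genes averaged less than in control. Col9a1, the remaining chain, had 1, 4, 0 and 21 counts in the same order of groups and was at least 5.91-fold higher with Dox in the presence of A-MYB, against a limit of 3 counts over the A-MYB group. It too entered the test only through Dox + A-MYB, so no call is read from it.

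Col14a1, Col16a1, Col20a1 and Col22a1 of this class were highest in Dox + A-MYB. Col14a1, a fibril-surface collagen also called undulin, was at 0 and 0.583 CPM in control, 0.0606 and 0.378 with Dox, 0.219 and 0.267 with A-MYB, and 2.54 and 2.82 with both, where both libraries were above the rest. It rose 10.8-fold with Dox in the presence of A-MYB, by 3.44 ± 0.77 (adjusted p = 0.0014), and 12.4-fold with A-MYB in the presence of Dox, by 3.63 ± 0.78 (adjusted p = 0.00107); DESeq2 passed the threshold for neither (adjusted p = 0.0634 and 0.0546). The second change was 2.80 without Dox replicate 1 and 5.37 without Dox replicate 2. Its interaction of 3.83 ± 1.30 (adjusted p = 0.0288) ran from -2.31 without control replicate 2 (adjusted p = 0.539), which leaves a control library with no count, to 5.59 without Dox replicate 2. That interaction was lost also without Dox replicate 1 (adjusted p = 0.0673), A-MYB replicate 1 (0.0943) or A-MYB replicate 2 (0.0815) and in DESeq2 (0.179).

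Col20a1, a little-studied FACIT, was at 0.450 and 0.505 CPM in control, 0.636 and 0.550 with Dox, 0.329 and 0.501 with A-MYB, and 1.93 and 2.14 with both. It rose by 2.27 ± 0.47 with Dox in the presence of A-MYB (adjusted p = 0.000198) and by 1.77 ± 0.44 with A-MYB in the presence of Dox (adjusted p = 0.00154), and both calls held in every alternative. Its interaction of 1.96 ± 0.71 (adjusted p = 0.0288) was lost without any 1 library except A-MYB replicate 2 (adjusted p from 0.052 to 0.0921). Col16a1, which associates with fibrils and fibrillin, was at 0.658 and 0.544 CPM in control, 0.303 and 0.756 with Dox, 0.292 and 0.801 with A-MYB, and 1.96 and 2.05 with both. It rose by 1.85 ± 0.50 (adjusted p = 0.00267, but 0.0561 without A-MYB replicate 1) and by 1.93 ± 0.50 (adjusted p = 0.00201, but 0.0523 without Dox replicate 1) in the same comparisons. Its interaction of 2.05 ± 0.76 (adjusted p = 0.0318) was lost without either control library, Dox replicate 1, A-MYB replicate 1 or Dox + A-MYB replicate 2 (adjusted p from 0.0539 to 0.147).

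Col22a1, the collagen of the muscle-tendon junction, was at 1.97 and 2.68 CPM in control, 1.94 and 1.92 with Dox, 1.57 and 1.77 with A-MYB, and 2.95 and 3.11 with both. It rose by 0.86 ± 0.29 with Dox in the presence of A-MYB (adjusted p = 0.0141), lost without A-MYB replicate 1 (0.0772) or Dox + A-MYB replicate 2 (0.0698). Its interaction of 1.12 ± 0.42 (adjusted p = 0.0332) was lost in DESeq2 (0.0523) and without any 1 library except control replicate 1 and A-MYB replicate 2 (adjusted p from 0.0512 to 0.127). Col12a1 and Col19a1 had 0 to 11 counts in a group and were not tested.

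**Figure D3:**
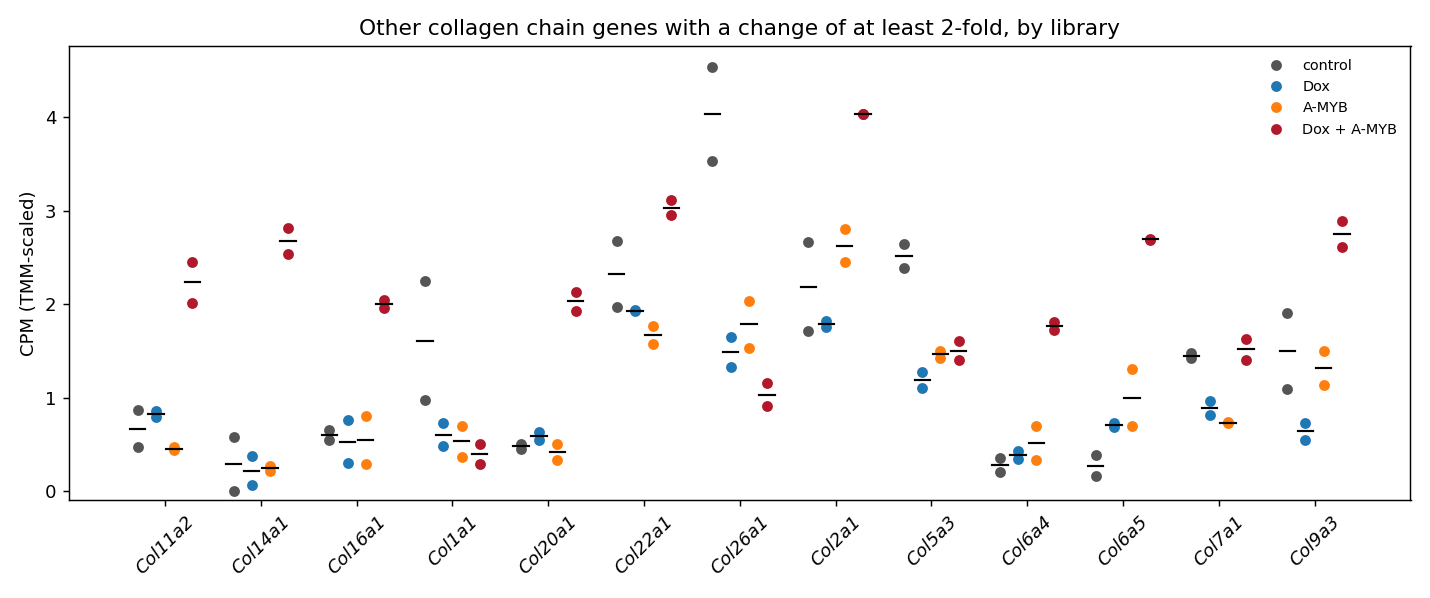
CPM (TMM-scaled) of the 13 collagen chain genes given in full for a change of at least 2-fold and under 5 CPM in every group mean, in each of the 8 libraries; points are libraries and short lines are group means. Dox + A-MYB libraries are highest for Col14a1, Col11a2, Col20a1, Col16a1, Col6a4 and Col6a5, and control libraries for Col26a1, Col1a1 and Col5a3 on average.

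Type VI, whose usual trimer is made of the Col6a1, Col6a2 and Col6a3 chains, was represented by other genes. Col6a1, Col6a2 and Col6a3 had 1 to 17 counts in a group and were not tested, as was Col6a6, with 1 to 8. The alternative chains Col6a4 and Col6a5 made most of the class sum, which was 0.789 ± 0.0382 CPM in control, 1.41 ± 0.102 with Dox, 1.72 ± 0.212 with A-MYB and 5.05 ± 0.326 with both. Col6a5 was at 0.381 and 0.155 CPM in control, 0.727 and 0.687 with Dox, 0.694 and 1.30 with A-MYB, and 2.69 and 2.70 with both. It was the only member that rose with A-MYB alone, by 1.86 ± 0.54 (adjusted p = 0.00868), a call lost without control replicate 2 (0.101) or A-MYB replicate 2 (0.132). It rose by 1.92 ± 0.43 with A-MYB in the presence of Dox (adjusted p = 0.000458), held in every alternative, and by 1.42 ± 0.41 with Dox in the presence of A-MYB (adjusted p = 0.00464, but 0.0674 without A-MYB replicate 1). Its interaction was 0.06 ± 0.85 (adjusted p = 0.967).

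Col6a4 was at 0.208 and 0.350 CPM in control, 0.424 and 0.344 with Dox, 0.694 and 0.334 with A-MYB, and 1.81 and 1.72 with both. It rose by 2.18 ± 0.51 with A-MYB in the presence of Dox (adjusted p = 0.000788), held in every alternative, and by 1.78 ± 0.50 with Dox in the presence of A-MYB (adjusted p = 0.00344, but 0.0645 without A-MYB replicate 2). Col7a1, the anchoring fibril chain of skin, was at 1.42 and 1.48 CPM in control, 0.818 and 0.962 with Dox, 0.730 and 0.735 with A-MYB, and 1.402 and 1.63 with both, so the libraries with both treatments overlapped the controls and lay above the other 4. Its interaction was 1.75 ± 0.59 (adjusted p = 0.0194), lost without Dox replicate 1 (0.0629) or Dox + A-MYB replicate 2 (0.0677). Its rise of 1.05 ± 0.42 with Dox in the presence of A-MYB (adjusted p = 0.0343) was lost in DESeq2 (0.0589) and without any of the 4 A-MYB and Dox + A-MYB libraries (adjusted p from 0.0663 to 0.16).

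Among the membrane-spanning collagens, Col13a1 of the neuromuscular junction and Col17a1 of the hemidesmosome rose with Dox in the presence of A-MYB, by 0.79 ± 0.30 (adjusted p = 0.0294) and 0.97 ± 0.37 (adjusted p = 0.0262). Col13a1 was at 1.47 to 2.11 CPM in the first 6 libraries and 2.57 and 3.29 in Dox + A-MYB, and Col17a1 at 0.866 to 1.46 and 2.07 and 2.46. Both calls were lost in DESeq2 (adjusted p = 0.0635 and 0.0552), without A-MYB replicate 2 (0.192 and 0.227) and without Dox + A-MYB replicate 2 (0.22 and 0.145). Col13a1 rose also with A-MYB in the presence of Dox, by 0.71 ± 0.30 (adjusted p = 0.0464), lost without control replicate 1, Dox replicate 1, Dox replicate 2 or Dox + A-MYB replicate 2 (adjusted p from 0.0501 to 0.289), without the filter on low counts (0.058) and in DESeq2 (0.093). Col23a1 passed no comparison and Col25a1 was not tested, with 18 counts in Dox + A-MYB and 0 to 1 elsewhere.

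Col26a1, which belongs to none of these classes, was at 4.54 and 3.54 CPM in control, 1.33 and 1.65 with Dox, 1.53 and 2.04 with A-MYB, and 0.905 and 1.16 with both. It fell by 1.44 ± 0.31 with Dox alone (adjusted p = 0.000899), held in every alternative, and by 1.17 ± 0.31 with A-MYB alone (adjusted p = 0.00406, but 0.0633 without control replicate 1 and 0.0539 without A-MYB replicate 1). Its change of -0.79 ± 0.34 with Dox in the presence of A-MYB (adjusted p = 0.0459) was lost on total gene counts (0.138), under the replicate block (0.051), in DESeq2 (0.0815) and without any 1 of 5 libraries: either control, A-MYB replicate 2 or either Dox + A-MYB library (adjusted p from 0.0501 to 0.258). Col28a1 and the network-forming Col8a1 and Col10a1 had 0 to 2 counts in a group. Col8a2 had 9 to 19 and passed no comparison. In all, the 16 untested members had sums of 0 to 53 counts over the 8 libraries.

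By mean level over the 8 libraries, all 5 members over 5 CPM fell with Dox alone, against 17.5% of the 10255 genes over 5 CPM, and all 5 fell with A-MYB alone, against 19.9%. With Dox alone 4 of 12 members at 1 to 5 CPM fell (33.3%) and 0 rose, against 10.7% of all genes there in each direction. Under 1 CPM 1 of 11 fell, Col1a1, whose call rests on control replicate 1, and 0 rose, against 2.55% and 4.56% of all genes there. The medians of the members were -0.31 and -0.39. Ranked by the mean of the control libraries instead, 5 of 10 members at 1 to 5 CPM fell, against 9.49% of all genes. Under 1 CPM in that ranking 0 of 13 fell, against 1.26%, and their median was -0.09. For Dox with A-MYB the direction differed between levels: 4 of the 5 abundant members fell, against 40.6% of genes at that level. Of the 12 members at 1 to 5 CPM, 8 rose with Dox in the presence of A-MYB (66.7%), and of the 11 under 1 CPM 6 rose (54.5%). Genes of all kinds at these levels rose as well, 38.9% of 2215 and 36.8% of 2194. Their medians were 0.43 and 1.08, against 0.82 and 1.78 for the members. The mean over 8 libraries includes Dox + A-MYB, so it sorts genes partly by the rise itself. With levels taken from the control libraries, 5 of 10 members at 1 to 5 CPM rose (50%), against 35.2% of all genes. There the medians were 0.33 for the members and 0.34 for all genes. Under 1 CPM in control 9 of 13 rose (69.2%), against 44.6%, with medians of 1.78 and 1.25. A low gene enters the test more easily where it is high in 1 group, so the shares at low levels describe the genes that passed the filter and not the 44.

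**Figure D4:**
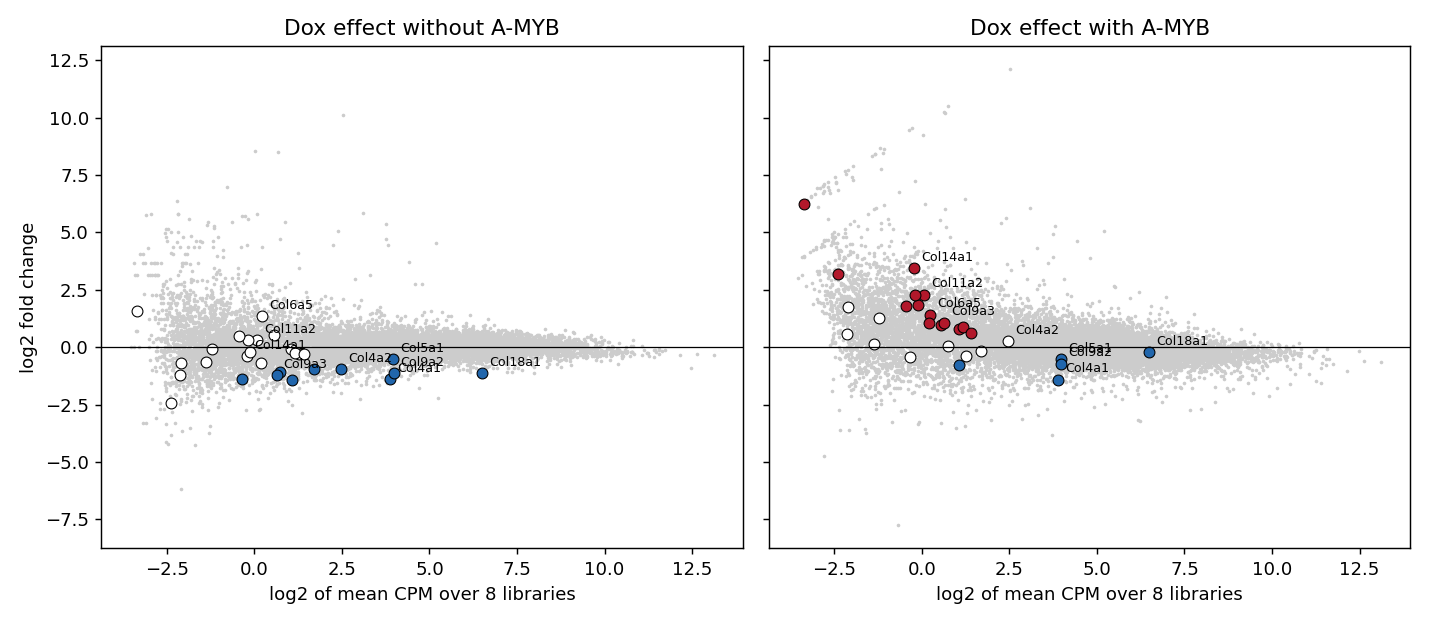
Log2 fold change of Dox without A-MYB (left) and with A-MYB (right) against the log2 of the mean CPM over 8 libraries, for all 14664 genes tested (grey); circles are the 28 tested collagen chain genes, blue where lower, red where higher and white where the test was not passed. On the left the 5 abundant collagens are below 0, and on the right most low ones are above 0, where the grey points also reach higher.

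Most of the tested genes that modify and fold collagen fell in each two-group comparison. The counts of these lists stand beside the shares of all genes given above: 14.3% lower and 17.9% higher with Dox alone, and 30.4% and 28.5% with Dox in the presence of A-MYB. Of 15 tested genes of chain modification, 12 fell with Dox alone and 0 rose, 10 fell with A-MYB alone and 0 rose, and in each comparison of Dox + A-MYB with a single treatment 10 fell and 2 rose. P4ha1, a catalytic subunit of prolyl 4-hydroxylase, was at 123 and 126 CPM in control, 82.8 and 80.0 with Dox, 101 and 99.1 with A-MYB, and 34.8 and 36.01 with both, and fell by 1.5 ± 0.070 with Dox in the presence of A-MYB (adjusted p = 2.43e-15). Its partner P4hb fell by 0.62 with Dox alone and by 0.87 with A-MYB present (adjusted p = 2.08e-08 and 5.29e-12). Serpinh1, the collagen chaperone HSP47, went the other way: it was at 37.7 and 40.4 CPM in control, 37.6 and 36.1 with Dox, 27.2 and 29.4 with A-MYB, and 53.4 and 57.5 with both, and rose by 0.97 ± 0.085 with Dox in the presence of A-MYB (adjusted p = 5.15e-10).

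Of 12 tested genes of processing and crosslinking, 5 fell and 1 rose with Dox alone or with A-MYB alone, and 4 rose and 2 fell in each comparison with Dox + A-MYB, where the share that rose is again near that of all genes. Loxl2, a lysyl oxidase that crosslinks collagen IV, was at 25.4 CPM in both controls, 9.45 and 9.42 with Dox, 20.3 and 13.3 with A-MYB, and 1.46 and 0.860 with both; it fell by 3.85 ± 0.22 with Dox in the presence of A-MYB (adjusted p = 3.44e-11). Adamts3, a procollagen N-proteinase, rose by 1.34 ± 0.20 in that comparison (adjusted p = 3.65e-06) and Adamts14, of the same family, by 1.21 ± 0.22 (adjusted p = 3.54e-05). Of 16 basement membrane partners, 12 fell and 1 rose with Dox alone, and 5 fell and 5 rose with Dox in the presence of A-MYB, which is near the share of all genes in both directions. Nid1, which links laminin to type IV collagen, was at 272 and 281 CPM in control, 147 and 147 with Dox, 206 and 194 with A-MYB, and 59.7 and 56.5 with both. Laminin chains split: Lamc1 fell by 0.77 with Dox in the presence of A-MYB (adjusted p = 1.64e-11) while Lama4 rose by 2.61 ± 0.32 (adjusted p = 9.58e-06).

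Of 6 tested collagen receptors, 2 fell with Dox alone and 0 rose, and 3 fell and 2 rose with Dox in the presence of A-MYB. Itga11, the integrin subunit of mesenchymal cells that binds fibrillar collagen, was at 0 and 0.155 CPM in control, 0.151 and 0.344 with Dox, 0.183 and 0 with A-MYB, and 5.20 and 6.64 with both, so both libraries with both treatments were above the other 6. It entered the test only through those libraries, so its calls among the 2 that rose here support nothing. Its partner Itgb1 fell by 0.63 ± 0.066 with Dox in the presence of A-MYB (adjusted p = 9.9e-09), and the receptor kinase Ddr2 by 1.15 ± 0.16 (adjusted p = 1.3e-06). Of 7 tested genes of collagen degradation, 2 fell with Dox alone and 0 rose, and 1 fell and 2 rose with Dox in the presence of A-MYB, the latter near the share of all genes; Mmp14, a membrane collagenase, fell by 1.08 ± 0.11 (adjusted p = 1.3e-08) and Mmp9, a gelatinase, rose by 1.27 ± 0.33 (adjusted p = 0.00183).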

How the data were processed

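Strand-marked poly(A) RNA libraries (TruSeq Stranded mRNA) of 8 ES cell samples in 4 groups of 2 were analysed. The deposited values are counts of reads per gene, made by the authors. Per the submitters' processing notes, the tools included bcl2fastq 2.20.0, HISAT2 2.1.0 and HTSeq, with mm10; the strand setting of the counting is not stated in the labels or notes. The 5 lines per file that name no gene, 17.2% to 19.5% of all reads, were left out. From the counts, edgeR 4.0.16 (R 4.3.3, limma 3.58.1) was run with TMM scaling and its filter on low counts (0.329 CPM in at least 2 libraries), a robust quasi-likelihood fit on all 8 libraries with 1 coefficient per group, two-sided tests and Benjamini-Hochberg adjustment over 14664 genes, threshold 0.05. The fit shares 1 estimate of the spread, and was tested on simulated data. SE is the log2 change divided by the root of F. Intervals and limits on counts cover counting error only.

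Members and lists of collagen classes, pathway genes and markers were chosen with earlier results of these data known. Values in every library are given for members with a group mean of at least 5 CPM, or a called change of at least 2-fold and 1 CPM in a group; members outside this rule that passed a comparison were named after their values were seen. Of each pathway list, genes among the 4 smallest p-values in a comparison could be named. The labels do not say that replicate numbers pair libraries, and the main fit used no pairing. Correlations of same-numbered deviations ran from -0.0269 to 0.0843. They were taken over all tested genes, counting noise included, so they cannot exclude a pairing. Alternatives were edgeR's other size factors, total gene counts, no filter, DESeq2 1.42.0, a replicate block and leaving out each library.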

Additional observations from a re-analysis of the deposited data

Results flagged for a closer look

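In 9 collagen chain genes the effect of Dox with A-MYB differed from that without A-MYB in a test of the difference itself, edgeR's interaction term. The difference, on the log2 scale and always higher with A-MYB, was 0.91 for Col18a1, 1.12 for Col22a1, 1.21 for Col4a2, 1.75 for Col7a1, 1.96 for Col20a1, 2.00 for Col11a2, 2.05 for Col16a1, 2.29 for Col9a3 and 3.83 for Col14a1. Only those of Col18a1, Col4a2 and Col9a3 passed in each of the 13 alternatives.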

How the results depend on the processing

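The numbers of called members changed when single libraries were left out. Such a fit leaves 1 library in a group, and its filter on low counts then asks for only 1 library. Members that were not tested in the main fit could therefore enter and be counted. Over fits that left out each library, members higher for Dox with A-MYB ranged from 7 to 15 and members lower from 3 to 5. Positive interactions ranged from 4 to 9, and members higher for A-MYB without Dox from 0 to 1. All genes higher for Dox without A-MYB ranged from 1255 to 2623 (main 2626) and lower from 1221 to 2598 (main 2090), and for A-MYB without Dox from 1718 to 2834 (main 2856) and from 1482 to 2842 (main 2230). DESeq2 called 9 members higher for Dox with A-MYB. Scaling to total gene counts moved the median of all genes by 0.21 for Dox with A-MYB, 0.19 for A-MYB with Dox and 0.17 for the interaction. It gave 3 members lower and 2607 genes lower for Dox with A-MYB (main 4463), 16 members higher and 2369 genes lower for A-MYB with Dox (main 4161), and 3743 genes higher and 2293 lower for the interaction (main 2410 and 3587). Over tested members, comparisons and alternatives, 1684 results kept their side of the threshold, 1630 of them with their sign and 54, uncalled in both fits, with the other sign; 98 lost the call, 22 gained it, and 2 called results changed sign: Col14a1's interaction without control replicate 2 (-2.31, where 1 library at 0 is left; 5.59 without Dox replicate 2), and Col18a1 for Dox with A-MYB on total gene counts (0.00070). With the replicate number as a block, 13 members were higher and 4 lower for Dox with A-MYB and 9 lower for Dox without A-MYB; the block ended the calls named in the report and no other member's. The 16 members with 0 to 53 counts in all could not be tested, and 2 libraries a group limit the precision of the rest.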
